A study of Mus musculus with 9 samples.

Results

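The 6 miRNAs described here are ones known from blood vessels and from immune cells: mmu-miR-143-3p and mmu-miR-145a-5p of mural cells, mmu-miR-126a-5p of endothelium, and mmu-miR-142a-5p, mmu-miR-146a-5p and mmu-miR-150-5p of microglia and blood cells (the mouse prefix is left out below). They were chosen by name, with earlier results of these data known, from a table of 1052 mature miRNAs. Of these, 560 had a count in any library, and all 6 members were found, each in 1 row. Small RNA had been sequenced from lateral cortex taken from C57BL/6 mice on embryonic day 14.5, and cells sorted by reporter fluorescence gave 3 libraries for each of 3 populations. By their titles, proliferating progenitors lacked both the R and the G reporter. Differentiating progenitors had R without G, and newborn neurons had G. All 3 populations share strain, age, dissection and papain dissociation, and the meninges, the ganglionic eminences and the olfactory bulb had been taken off first. The labels name neither the genes that drive the reporters nor a marker sorted against vessel or blood cells, and they do not say how many embryos a library pools. The proliferating population is thus defined by the absence of both reporters, and the other 2 populations by the presence of 1. Nothing in the labels says that the libraries came from separate litters, so the p-values below measure the spread between these libraries, which may be technical.

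Mural cells (pericytes and smooth muscle cells) wrap the vessels that grow into the embryonic cortex, endothelial cells line those vessels, and microglia, the resident macrophages of the brain, invade the tissue early in development. Each of these cell types carries miRNAs that neural cells make little of: miR-143 and miR-145a come from a shared primary transcript and act in smooth muscle differentiation, miR-126a lies in the endothelial gene Egfl7 and acts in vessel growth, and miR-142a is made across the blood lineages. miR-146a restrains inflammatory signalling downstream of Toll-like receptors, and miR-150 is a miRNA of mature lymphocytes. In bulk libraries such as these, fewer cells of a type and less miRNA per cell cannot be told apart.

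The mature sequences of miR-142a-5p, which had no count in the neuron libraries, and of miR-146a-5p, whose pattern differed from that of the other members, are shown 5′ to 3′ from RefSeq (GRCm38.p6), with the seed (bases 2 to 8) in capitals. miR-146b-5p is added because its seed is that of miR-146a-5p and because reads of both could be confused.
miR-142a-5p: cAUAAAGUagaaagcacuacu
miR-146a-5p: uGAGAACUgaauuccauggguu
miR-146b-5p: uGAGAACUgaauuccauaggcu
miR-146a-5p and miR-146b-5p are identical at 20 of 22 positions and differ by G18A and U21C, counted from the 5′ end of miR-146a-5p with its base given first. Among 1679 mature names of the RefSeq table, no other shared this seed, and none shared the seed AUAAAGU of miR-142a-5p. The table paired mature sequences with 2 of the 6 members. Leaving out predicted miRNAs, 925 rows of the count table were named 5p and 114 3p. The hairpin of miR-142a, with both mature arms in capitals, shows that the counted 5p arm pairs with a 3p arm that was not in the count table.
hairpin of miR-142a: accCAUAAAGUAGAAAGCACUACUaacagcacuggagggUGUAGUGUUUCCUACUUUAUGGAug

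The members come from 5 places in the genome, given on GRCm38, the assembly behind the build mm10 that the submitters' processing notes name. Mir143 (chromosome 18, 61649196 to 61649258) and Mir145a (chromosome 18, 61647825 to 61647894) lie 1301 bases apart inside the span of the long noncoding RNA gene Carmn. Mir126a (chromosome 2, 26591357 to 26591429) lies inside Egfl7, in an intron of 8 of the 9 Egfl7 transcripts that span it and in an exon of the other. The same hairpin is also within an intron of the overlapping gene model Gm20532. Mir142 (chromosome 11, 87756864 to 87756927) is in an intron of the noncoding gene Mir142hg. Mir146 (chromosome 11, 43374397 to 43374461) and Mir150 (chromosome 7, 45121757 to 45121821) lay within no longer gene of the GENCODE annotation. miRNAs of the opposite strand at Mir142 and Mir126a (miR-142b, miR-126b-5p and miR-126b-3p) had 0 counts in all 9 libraries.

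Library totals of counted miRNAs ran from 821155 to 3856484, and 3 counts, the limit that a count of 0 allows, stood for 0.772 to 3.93 CPM. CPM here is the count divided by the TMM-scaled library total, times 1000000, and intervals and limits cover counting error only, since amplified reads are not independent molecules. Depth differed between populations: the deepest library was replicate 1 of the neurons. The neural identity of the libraries was visible in miR-9-5p, a miRNA of neural progenitors, which took 62.5% to 69.0% of the counts in all of them. The neuronal miR-124-5p rose from 57.7 to 175 and 435 CPM along the 3 populations (log2 difference of 1.58 with an SE of 0.33, and then 1.32, SE 0.30; edgeR adjusted p = 0.00238 and 0.00171). The other tested neural miRNAs did not share this rise: between proliferating progenitors and neurons miR-219a-5p fell (log2 difference -1.10, SE 0.29, edgeR adjusted p = 0.00419), and miR-128-1-5p was not called (0.14, SE 0.35, edgeR adjusted p = 0.736). Against this background the 6 members together were rare, with 0.0482% to 0.0578% of the counts in proliferating progenitors, 0.00611% to 0.00707% in differentiating progenitors and 0.00319% to 0.00449% in neurons. The widest 95% Wilson interval, in proliferating replicate 3, ran from 0.0529% to 0.0633%.

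**Figure D1:**
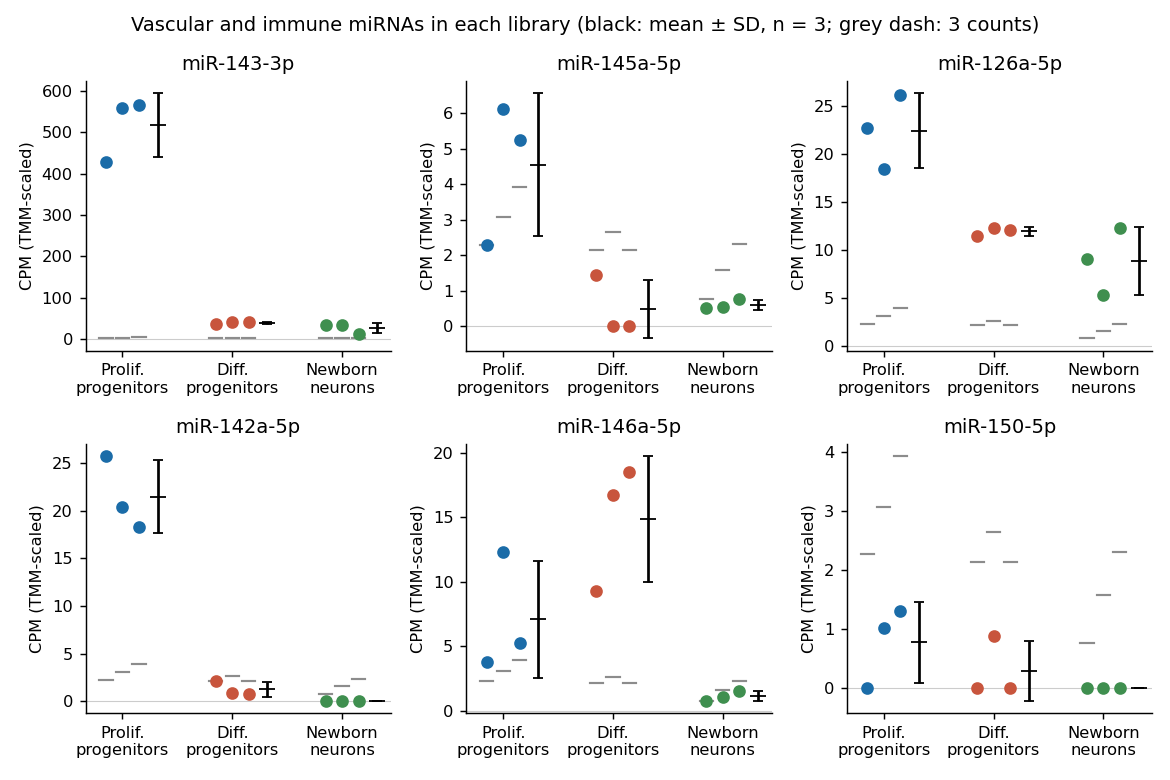
TMM-scaled CPM of the 6 miRNAs in each library, with points for the 3 libraries of each population, the mean ± SD (n = 3) in black and the level of 3 counts as a grey dash. miR-143-3p, miR-126a-5p and miR-142a-5p are highest in proliferating progenitors, miR-146a-5p has its highest libraries in differentiating progenitors, and miR-150-5p lies under the level of 3 counts in all 9 libraries.

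miR-143-3p was the most abundant member and fell sharply outside the reporter-negative population. Given in the order of replicates 1 to 3, as throughout, it had 566, 547 and 432 counts in the proliferating, 50, 45 and 56 in the differentiating and 133, 62 and 15 in the neuron libraries. Scaled, these were 429, 559 and 565 CPM, then 35.7, 39.6 and 39.9 CPM, then 34.2, 32.7 and 11.5 CPM. Every library of proliferating progenitors lay far above every other library, and the libraries of differentiating progenitors and neurons came close to each other without overlapping. By mean CPM among the 188 miRNAs that passed the low-count filter, miR-143-3p ranked 50th in the proliferating, 104th in the differentiating and 125th in the neuron libraries. The mean went from 518 ± 77.0 to 38.4 ± 2.34 CPM at the first step (SD, n = 3; log2 difference of -3.75 with an SE of 0.28, edgeR adjusted p = 1.49e-08). From differentiating progenitors to neurons, where the mean was 26.2 ± 12.7 CPM, the log2 difference of -0.48 (SE 0.29) was not called (edgeR adjusted p = 0.19). That last value leaned on neuron replicate 3: without it the log2 difference was -0.16 (edgeR adjusted p = 0.572). miR-143-3p thus remained well above the count limit in all 9 libraries, those of both reporter-positive populations included.

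miR-145a-5p, made from the same primary transcript, was close to the limit of detection. It had 3, 6 and 4 counts in the proliferating, 2, 0 and 0 in the differentiating and 2, 1 and 1 in the neuron libraries. Only 2 libraries, replicates 2 and 3 of the proliferating progenitors, exceeded 3 counts. The proliferating libraries lay above all others (2.27 to 6.13 CPM against 0 to 1.43 CPM). Their lowest, replicate 1, had 3 counts, and the count of 0 in differentiating replicate 2 allowed up to 2.64 CPM. The separation is thus not settled at this depth. Pooled over its libraries, differentiating progenitors held 12.0% of the proliferating level (95% exact interval 1.31% to 52.8%) and neurons 13.3% (3.16% to 43.1%). It did not pass the low-count filter. In a fit with no filter it was called lower in differentiating progenitors (log2 difference of -2.91 with an SE of 0.92, edgeR adjusted p = 0.0305) and in neurons (-2.74, SE 0.79, edgeR adjusted p = 0.0032) than in proliferating progenitors. The p-values of that fit are not on the scale of the main one. At the first step it gave miR-143-3p an edgeR adjusted p of 1.84e-58, against 1.49e-08 in the main fit, at the same log2 difference of -3.75. Both calls of miR-145a-5p, on few counts, are therefore weaker than they read. Of the arms of both hairpins in the table, miR-143-5p had 2 counts in proliferating replicate 1 and 0 in the other 8 libraries. Per library of proliferating progenitors, counts of miR-143-3p were 84.2 to 162 times those of miR-145a-5p (0.5 added to each count). Levels of different miRNAs in small RNA libraries also carry the preferences of adapter ligation, which were not measured here.

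miR-126a-5p, the endothelial member, had more than 3 counts in every library and a smaller difference between populations than miR-143-3p, which the ratio of both tests further on. Its counts were 30, 18 and 20 in the proliferating, 16, 14 and 17 in the differentiating and 35, 10 and 16 in the neuron libraries. In CPM the proliferating libraries (18.4 to 26.2) were above the differentiating ones (11.4 to 12.3), and the neuron libraries (5.28 to 12.3) overlapped with the latter. The first step, from 22.4 ± 3.90 to 12.0 ± 0.471 CPM (SD, n = 3; log2 difference of -0.90 with an SE of 0.32), missed the threshold (edgeR adjusted p = 0.0638). It was called without neuron replicate 2 (edgeR adjusted p = 0.0289), without neuron replicate 3 (edgeR adjusted p = 0.0497) and with a replicate block (edgeR adjusted p = 0.0432). miR-126a-5p was lower in neurons than in proliferating progenitors, at 8.86 ± 3.51 CPM (SD, n = 3). The log2 difference was -1.36 with an SE of 0.31 (edgeR adjusted p = 0.00123). Pooled, differentiating progenitors held 53.7% of the proliferating level (95% exact interval 36.2% to 79.0%) and neurons 38.8% (27.0% to 55.6%).

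The ratio of the mural to the endothelial member within a library does not depend on how libraries are scaled. It sets a 3p arm against a 5p arm, and the other arm of the endothelial miRNA, miR-126a-3p, was not in the table. For each read of miR-126a-5p there were 18.6, 29.6 and 21.1 reads of miR-143-3p in the 3 proliferating libraries, and 3.06, 3.14 and 3.23 in the differentiating ones. The neuron libraries gave 3.76, 5.95 and 0.939. The mean log2 ratio fell by 2.85 at the first step, a 7.2-fold change without overlap (two-sided exact permutation test, p = 0.1, the smallest value that 3 libraries against 3 allow). Between differentiating progenitors and neurons the ratio differed by less than the spread between libraries (log2 difference -0.19, exact permutation test, p = 1), and without neuron replicate 3 the difference turned to 0.59 (exact permutation test, p = 0.2). That library had only 15 counts of miR-143-3p.

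**Figure D2:**
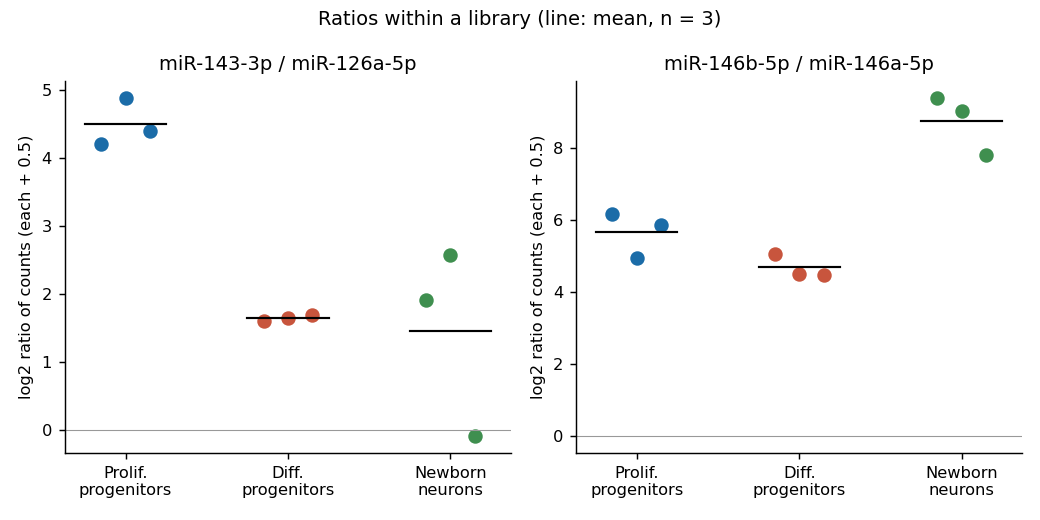
Log2 ratio of counts within each library, with 0.5 added to each count, for miR-143-3p over miR-126a-5p (left) and for miR-146b-5p over miR-146a-5p (right); points are libraries and lines the mean of 3. The first ratio drops from 4.22 to 4.89 in proliferating progenitors to 1.61 to 1.69 in differentiating progenitors, and the second is highest in neurons.

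miR-142a-5p, the miRNA of the blood lineages that microglia also carry, was found in proliferating progenitors and hardly elsewhere. It had 34, 20 and 14 counts in the proliferating libraries, which is 25.8, 20.4 and 18.3 CPM. Differentiating progenitors had 3, 1 and 1 counts, and the 3 neuron libraries had none. All libraries of both reporter-positive populations were at or under 3 counts. miR-142a-5p passed the low-count filter only through the proliferating libraries, where it is high, so the p-values that follow are a description. At the first step it fell to 5.71% of the proliferating level by pooled counts (95% exact interval 1.8% to 14.0%; edgeR adjusted p = 1.06e-05). In neurons the counts of 0 allowed up to 0.772, 1.58 and 2.31 CPM in replicates 1 to 3, which put the level at least 13.9-fold lower than in proliferating progenitors (limit of 3 counts per library; edgeR adjusted p = 6.66e-08). The difference between differentiating progenitors and neurons was called as well (edgeR adjusted p = 0.0064). It compares counts at or under the limit in both populations, so no fold is given, and without differentiating replicate 1, the library with 3 counts, the adjusted p was 0.0545 (edgeR).

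miR-146a-5p, the other immune member that passed the filter, did not follow the same order. Its counts were 5, 12 and 4 in the proliferating, 13, 19 and 26 in the differentiating and 3, 2 and 2 in the neuron libraries. In CPM the differentiating libraries read 9.28, 16.7 and 18.5, the proliferating ones 3.79, 12.3 and 5.24, and the neurons 0.772 to 1.54. Proliferating replicate 2 overlapped with the differentiating libraries, and the neurons lay below all others. miR-146a-5p passed the low-count filter mainly through the differentiating libraries, where it is high, so the p-values that follow are a description. The higher level in differentiating progenitors (14.8 ± 4.90 against 7.10 ± 4.53 CPM, SD, n = 3; log2 difference 1.08, SE 0.42) was not called (edgeR adjusted p = 0.0966). It was called without proliferating replicate 2 (log2 difference 1.75, edgeR adjusted p = 0.019) and without differentiating replicate 1 (1.33, edgeR adjusted p = 0.0446). With a replicate block it was called too (1.06, edgeR adjusted p = 0.044). miR-146a-5p then fell from differentiating progenitors to neurons (log2 difference of -3.78 with an SE of 0.50, edgeR adjusted p = 1.80e-05), where pooled counts left 6.71% of the level (95% exact interval 2.59% to 14.7%). It was also lower in neurons than in proliferating progenitors (log2 difference of -2.70 with an SE of 0.60, edgeR adjusted p = 0.00101).

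Its near-identical relative miR-146b-5p went the other way from differentiating progenitors to neurons. miR-146b-5p had 402, 389 and 266 counts in the proliferating, 454, 447 and 598 in the differentiating and 2369, 1306 and 569 in the neuron libraries. It rose from 381 ± 51.9 to 579 ± 129 CPM between differentiating progenitors and neurons (SD, n = 3; log2 difference of 0.60 with an SE of 0.18, edgeR adjusted p = 0.0114). There were 22.6 to 33.7 counts of miR-146b-5p for each of miR-146a-5p in the differentiating libraries, 31.2 to 73.2 in the proliferating ones and 228 to 677 in the neurons (0.5 added to each count). How the counting assigned reads that end before base 18, where both sequences are the same, is not given in the sources used here. The ratio was not constant across libraries, and the part of shared reads in the counts of miR-146a-5p was not tested.

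miR-150-5p, the lymphocyte miRNA, was not detectable at this depth. It had 0, 1 and 1 counts in the proliferating, 0, 1 and 0 in the differentiating and none in the neuron libraries. No library exceeded 3 counts, and the neuron libraries allowed at most 2.31 CPM. In the fit with no low-count filter none of its comparisons was called (edgeR adjusted p = 0.807, 0.548 and 0.235 at an unadjusted p of 0.503, 0.234 and 0.0693).

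Read as a group, 4 of the 6 members passed the low-count filter. The members were chosen with earlier results of these data known. miR-142a-5p passed only through the proliferating libraries and miR-146a-5p mainly through the differentiating ones. For both reasons the counts that follow describe these miRNAs and support nothing further. From proliferating to differentiating progenitors 2 members were called lower (miR-143-3p and miR-142a-5p) and none higher, where 7.98% of the 188 tested miRNAs were called lower, 7.98% higher and 16% in either direction. The libraries of 3 members did not overlap (miR-143-3p, miR-126a-5p and miR-142a-5p, all lower), against 18.6% lower, 13.8% higher and 32.4% in either direction of all tested. From differentiating progenitors to neurons 2 were called lower (miR-142a-5p and miR-146a-5p), with a background of 22.3% called lower, 23.9% higher and 46.3% either way. Libraries did not overlap for 3 (miR-143-3p, miR-142a-5p and miR-146a-5p, all lower), where all tested miRNAs gave 22.3% lower, 27.1% higher and 49.5% either way. From proliferating progenitors to neurons all 4 tested members were called lower, with 26.6% of all tested miRNAs called lower, 29.8% higher and 56.4% either way. Their libraries did not overlap, against 31.9% lower, 32.4% higher and 64.4% either way among all tested. Any difference among the 3 populations was called for these 4, and for 58.5% of all tested. The median log2 difference of the 4 was -2.32, -2.13 and -3.46 in these comparisons, beside 0.08, -0.06 and -0.05 over all 188; the values of miR-142a-5p that enter against neurons rest on counts of 0 and are no bounds.

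**Figure D3:**
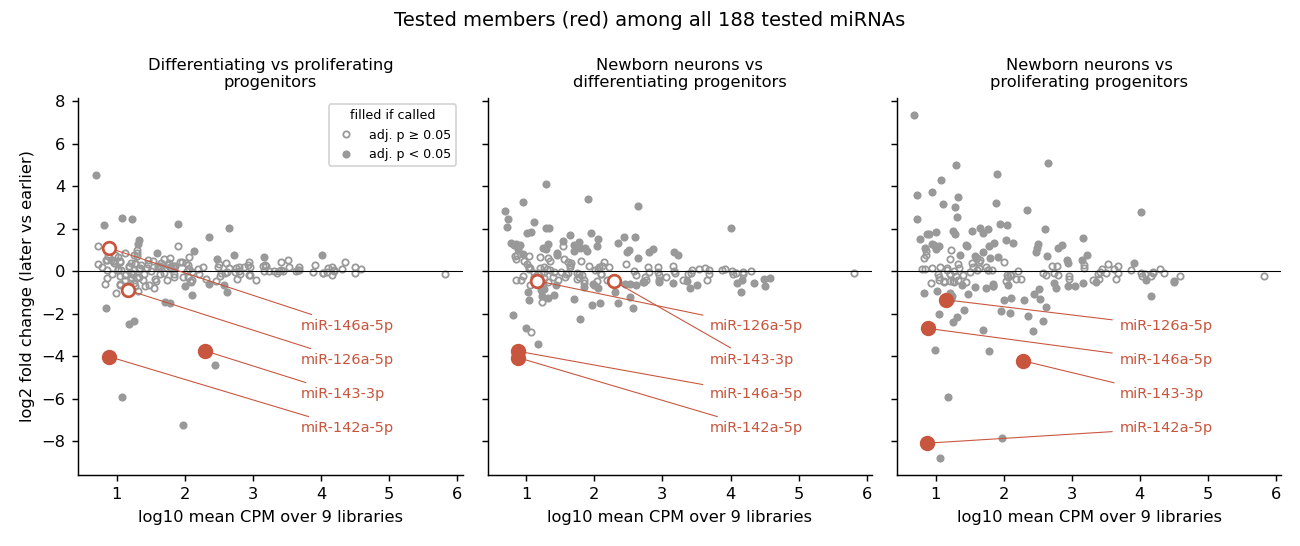
Log2 fold change against mean level (log10 CPM over 9 libraries) for the 188 tested miRNAs in each comparison, with the 4 tested members in red and symbols filled where the edgeR adjusted p was under 0.05. miR-143-3p and miR-142a-5p lie near the lower edge at the first step, with log2 differences of -3.75 and -4.03, and all 4 members are below 0 in newborn neurons against proliferating progenitors, where the position of miR-142a-5p rests on counts of 0.

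Sorted by how many members stood above 3 counts, the libraries fell in the order of the populations. Proliferating replicates 1 to 3 had 4, 5 and 5 of the 6 members above it, each differentiating library had 3, and each neuron library had 2. The differentiating libraries shared miR-143-3p, miR-126a-5p and miR-146a-5p, and the neuron libraries miR-143-3p and miR-126a-5p. The summed level of the 6 was 484, 617 and 622 CPM in proliferating progenitors, 60.0, 70.5 and 71.2 CPM in differentiating progenitors and 44.5, 39.6 and 26.1 CPM in neurons. The means were 574 ± 78.5, 67.2 ± 6.27 and 36.7 ± 9.52 CPM (SD, n = 3), and no pair of populations overlapped (two-sided exact permutation tests, p = 0.1 each, the smallest possible). Of the members' counts, miR-143-3p made up 90.0% in the proliferating, 57.2% in the differentiating and 74.5% in the neuron libraries. The other 5 members summed to 56.4 ± 1.84, 28.8 ± 3.93 and 10.6 ± 3.88 CPM (SD, n = 3), again with no overlap between populations. The members were chosen with earlier results of these data known, so both sums and their lack of overlap are a description. For such sums no share over all tested miRNAs was computed.

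The level that remained in the reporter-positive populations was not the same for all miRNAs of non-neural cells. For comparison, miR-451a and miR-144-5p mark red blood cells and their precursors. miR-451a in differentiating progenitors was at 0.624% of its proliferating level (pooled counts, 95% exact interval 0.25% to 1.29%) and miR-144-5p at 1.43% (0.17% to 5.27%). miR-143-3p was at 7.59% there (6.38% to 8.98%), and in neurons at 5.88% (5.06% to 6.79%), where miR-451a was at 0.397% (0.171% to 0.786%). These intervals leave out the spread between libraries: miR-143-3p had 34.2, 32.7 and 11.5 CPM in the neuron libraries. For each read of miR-451a there were 1.45 to 2.36 reads of miR-143-3p in proliferating libraries (0.5 added to each count). In differentiating libraries there were 14.4 to 30.3, on 3, 1 and 3 counts of miR-451a. Those counts are at or under the limit of 3, so the ratios there are a description. In the neurons this ratio ran from 4.43 to 125 on at most 5 counts of miR-451a. In differentiating progenitors miR-142a-5p lay between miR-143-3p and the erythroid pair. Its interval there, given above, overlapped with those of miR-143-3p and miR-144-5p. In neurons it had no count, and its 95% exact interval ran up to 2.41%, a range that holds the share of miR-451a. These percentages refer to miRNA counts. They were not converted to shares of cells, because the number of copies per cell is not known from these files, and whether neural cells contributed to the remaining counts was not tested.

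**Figure D4:**
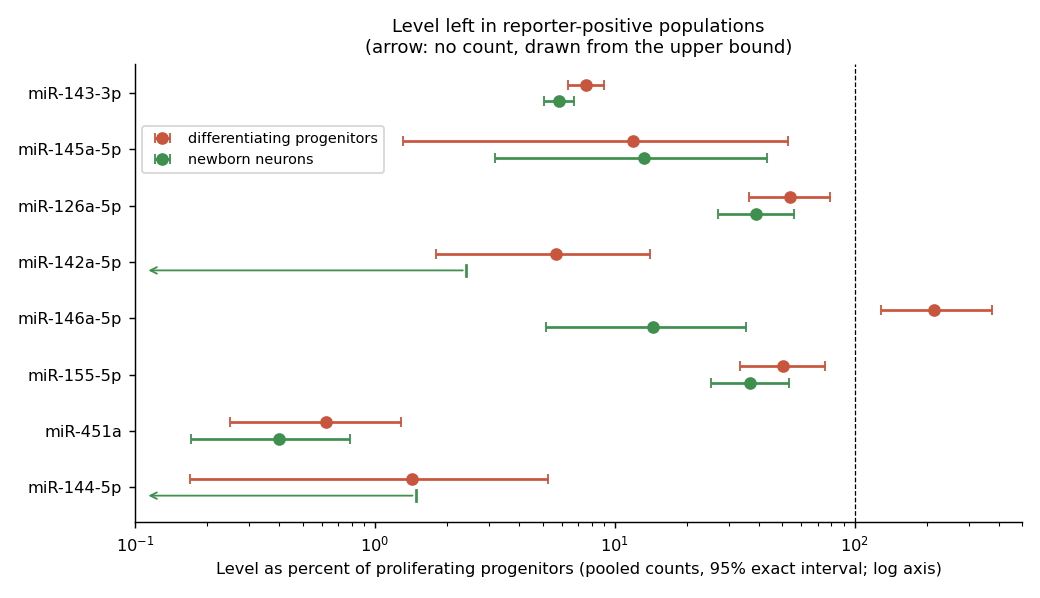
Level in differentiating progenitors and in newborn neurons as percent of the level in proliferating progenitors, from counts pooled over 3 libraries, with 95% exact intervals for counting error on a log axis; an arrow starts at the upper bound where no read was counted. miR-126a-5p and miR-155-5p keep the largest shares in neurons (38.8% and 36.6%), miR-451a the smallest measured one (0.397%), and miR-146a-5p is the only miRNA shown above 100% in differentiating progenitors.

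Wider lists of miRNAs for the same and for other cell types gave the following. Of 7 microglial and blood names, 5 were in the table and 3 were tested, namely miR-142a-5p, miR-146a-5p and miR-155-5p. All 3 were called lower in neurons than in proliferating progenitors, 1 was called lower at the first step and 2 at the second, and none was called higher. Of all tested miRNAs, 26.6%, 7.98% and 22.3% were called lower in these comparisons, and miR-142a-5p passed the filter only through the proliferating libraries, so the counts are a description. miR-155-5p, a miRNA of activated immune cells, had 23, 26 and 16 counts in the proliferating, 12, 21 and 9 in the differentiating and 32, 14 and 9 in the neuron libraries. Its levels were 21.7 ± 4.61, 11.2 ± 6.45 and 7.51 ± 0.669 CPM (SD, n = 3). The first step was not called (-0.98, SE 0.36, edgeR adjusted p = 0.0732). Neurons were lower than proliferating progenitors (log2 difference of -1.48 with an SE of 0.35, edgeR adjusted p = 0.00169). In the size of this difference to neurons and in what remained, miR-155-5p was closer to miR-126a-5p than to miR-142a-5p. miR-223-5p, the passenger arm of a myeloid miRNA, had at most 1 count in any library.

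Of 4 mural names 3 were in the table and only miR-143-3p was tested, and the endothelial list held miR-126a-5p alone of 2 names. None of the 8 mesenchymal names passed the filter: 5 were in the table, and their summed level was 6.06 to 10.5 CPM in proliferating progenitors, 1.76 to 5.71 CPM in differentiating progenitors and 4.22 to 10.8 CPM in neurons. The list includes miR-10a-5p and miR-10b-5p, with 16 and 20 counts over the neuron libraries, beside 18 of miR-199a-5p. Over the proliferating libraries they had 3 counts each, beside 17 of miR-199a-5p. For this list the neuron libraries overlapped with both progenitor populations. The mural list, at 433 to 571, 37.1 to 39.9 and 12.3 to 34.7 CPM, had no such overlap. miR-199a-5p, a miRNA of fibroblasts and other mesenchymal cells, had 6, 5 and 6 counts in the proliferating, 4, 1 and 5 in the differentiating and 6, 5 and 7 in the neuron libraries. Scaled to library size, its means were 5.84, 2.43 and 3.19 CPM. By pooled counts neurons were at 45.8% of its proliferating level (95% exact interval 22.3% to 94.5%). The 4 muscle names in the table had 0 counts in all libraries. Both erythroid miRNAs tested were called lower at the first step and in neurons against proliferating progenitors. Of all tested miRNAs, 7.98% and 26.6% were called lower in these comparisons. Neither erythroid miRNA was called at the second step. Both passed the filter only through the proliferating libraries: elsewhere miR-451a reached at most 2.31 CPM and miR-144-5p at most 0.714 CPM.

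**Figure D5:**
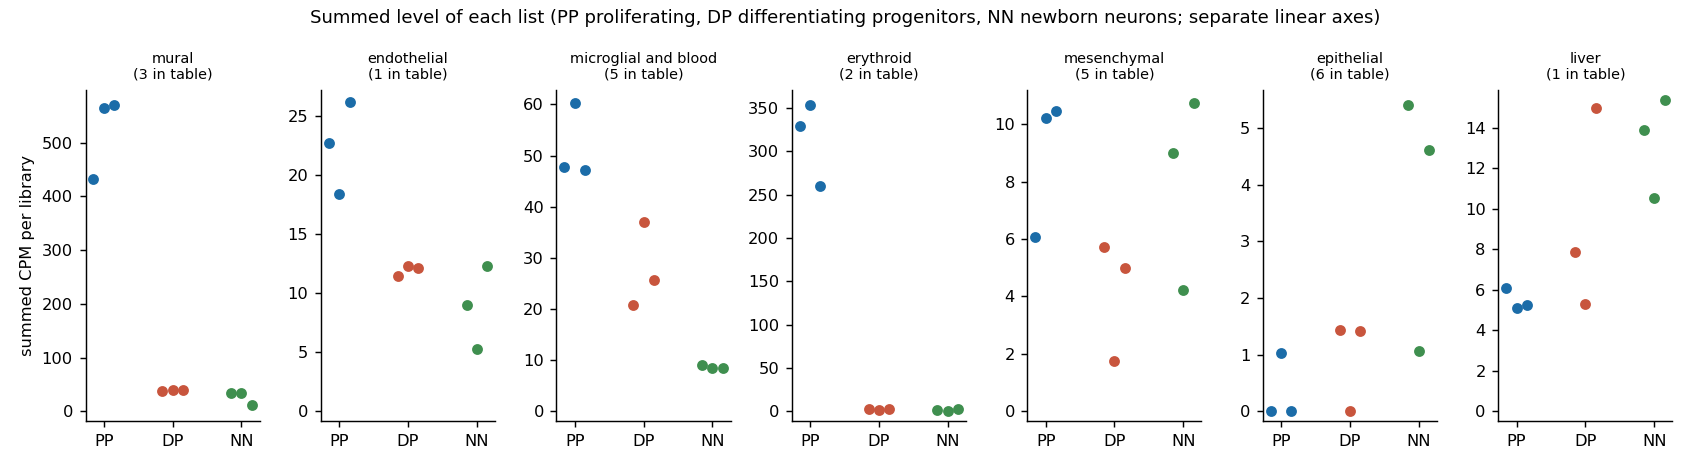
Summed CPM of the listed miRNAs found in the table, per library, for 7 lists of cell types; PP stands for proliferating progenitors, DP for differentiating progenitors and NN for newborn neurons, and each list has its own linear axis. The mural, endothelial, microglial and blood, and erythroid lists are highest in proliferating progenitors, while the neuron libraries overlap with the proliferating ones in the mesenchymal list (6.06 to 10.5 CPM in proliferating progenitors and 4.22 to 10.8 CPM in neurons).

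The miRNAs whose levels followed each member most closely were looked up among the 184 other tested miRNAs by Pearson correlation of log2 CPM over the 9 libraries. The libraries fall into 3 populations, so these values mostly express likeness of 3 means and are given as a description. miR-144-5p (r = 0.98) and miR-451a (r = 0.97) were nearest to miR-142a-5p, followed by miR-27a-5p (r = 0.94), which went from 37.9 to 6.65 and 0.523 CPM. The same erythroid pair was nearest to miR-143-3p (r = 0.96 and 0.95), with miR-129-5p as the third (r = 0.94). miR-126a-5p was nearest to miR-15b-5p, miR-674-5p and miR-219a-5p (r = 0.92 each), of which miR-15b-5p had means of 387, 277 and 185 CPM along the populations. miR-146a-5p stood next to members of the let-7 family: let-7a-5p (r = 0.91), miR-98-5p (0.88) and let-7i-5p (0.86). Among the members themselves, miR-143-3p and miR-142a-5p had r = 0.96, while miR-146a-5p reached at most 0.37 with any other tested member.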

How the data were processed

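The authors deposited raw read counts per miRNA for 9 small RNA libraries (3 per population), made with the NEBNext Small RNA kit per the labels' protocols. The submitters' processing notes name bcl2fastq 1.8.2, DESeq2 and the build mm10; aligner, counting rules and miRNA database release are not given in the sources used here. Of 1433 rows, 222 predicted ones without an accession were left out. The largest row per mature name was kept, and names with at least 50 counts differing by at most 2% were merged, which left 1052 miRNAs. The miRNAs and lists were chosen with earlier results of these data known. Named are the 6 members, tested miRNAs of the wider lists, erythroid and neural comparison miRNAs and the 3 nearest patterns per member; miR-146b-5p and the untested miR-143-5p, miR-199a-5p, miR-223-5p, miR-205-5p, miR-10a-5p and miR-10b-5p were singled out after their values were seen.

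edgeR 4.0.16 (R 4.3.3) was run on all 9 libraries: filterByExpr by population (188 miRNAs kept), TMM, glmQLFit and glmQLFTest with no covariate. P-values were Benjamini-Hochberg adjusted over all 188, and a miRNA was called under 0.05. Standard errors are the log2 difference divided by the root of its F statistic. Library totals of 821155 to 3856484 set the precision. Replicates differed beyond sampling noise by a chi-square test over tested miRNAs. Alternatives were other scalings, filters, DESeq2 1.42.0, pairwise fits, a replicate block, summed rows and leaving out each library.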

Additional observations from a re-analysis of the deposited data

How the results depend on the processing

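No alternative reversed a direction of a tested member in any pairwise comparison. From proliferating progenitors to neurons the number of members called lower was 4, from 3 (only the 2 populations compared, where miR-146a-5p was not tested) to 5 (no low-count filter, which admits miR-145a-5p with the limit given above). At the first step 2 members were called, 2 to 3 with 1 library left out, and 4 with a replicate block, which added miR-126a-5p (-0.91, edgeR adjusted p = 0.0432) and miR-146a-5p (1.06, edgeR adjusted p = 0.044). The labels do not say whether a replicate number marks a shared litter or day. Correlations of same-number deviations ran from -0.07 to 0.25, with 4 of 9 over 0.1, and those of different numbers from -0.26 to 0.12. Of the 9 libraries, 7 correlated best with their own number. The main fit has no block because the labels name none, and the first-step calls of miR-126a-5p and miR-146a-5p depend on that choice. The block changed no other count of members called. At the second step 2 were called, 1 to 2 with 1 library left out (1 without differentiating replicate 1) and 1 when only the 2 populations compared were fitted, since miR-142a-5p was then not tested. The change of the ratio of miR-143-3p to miR-126a-5p at the second step ran from -0.74 to 0.59 (log2) with 1 library left out. Library totals in place of TMM moved the median log2 change of all miRNAs by 0.06, 0.12 and 0.18 in the 3 comparisons, and totals without miR-9-5p by -0.08, 0.18 and 0.10. Depth limits miR-145a-5p, miR-150-5p and, outside proliferating progenitors, miR-142a-5p, which lie near 3 counts.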

Other observations

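miR-122-5p, the main miRNA of liver, had 8, 5 and 4 counts in the proliferating, 11, 6 and 21 in the differentiating and 54, 20 and 20 in the neuron libraries. It was higher in neurons than in proliferating progenitors (log2 difference of 1.24, SE 0.40, edgeR adjusted p = 0.0129; 29.8% of the 188 tested miRNAs were called higher there). miR-205-5p, an epithelial miRNA, had 21, 2 and 6 counts in the neuron libraries and at most 2 in any other. miR-10a-5p had 13 and miR-10b-5p 16 counts in neuron replicate 1, the deepest library, and both had at most 3 in every other. The other 5 epithelial names in the table had at most 1 count in any library. miR-205-5p, miR-10a-5p and miR-10b-5p did not pass the low-count filter, and in CPM the neuron libraries overlapped with the proliferating ones for miR-10a-5p (0 to 3.35 against 0 to 2.04) and miR-10b-5p (1.06 to 4.12 against 0 to 3.07).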
